A study of Mus musculus with 4 samples.

Results

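The 9 genes described here encode receptors of the tumour necrosis factor (TNF) receptor family that T cells can carry: Tnfrsf4 (OX40), Tnfrsf9 (CD137), Tnfrsf18 (GITR), Cd27, Tnfrsf1a and Tnfrsf1b (the receptors of TNF itself), Fas, Tnfrsf25 (death receptor 3) and Tnfrsf14 (the herpesvirus entry mediator, HVEM). They were taken by name from the 31053 gene rows of the deposited matrices, and 9 of 9 passed the filter on low counts that left 9467 genes for testing. Transcripts were counted by droplet single-cell RNA sequencing (10x Chromium, 5′ chemistry) in viable CD45+CD3+CD4+7AAD- T cells sorted from the lamina propria, the connective tissue under the epithelium, of the small intestine of wild-type C57Bl/6 mice, after removal of the Peyer's patches. The series holds 4 libraries of this 1 group, with no treated or mutant animals, so the comparisons set cells of the same libraries against each other. The design text speaks of 4 mice, but the labels do not tie each library to 1 mouse. The p-values therefore rest on how far differences between gates varied from library to library, pooled over the gates. The age of the animals was not given in the sources used here.

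Cells were placed in 6 gates by unique molecular identifiers (UMIs, one per counted transcript), each cell going to the first gate it matched. Cells with at least 1 UMI of Foxp3, the lineage factor of regulatory T cells (Treg cells), and at least 1 of Gata3, a factor known to mark a subset of intestinal Treg cells, formed the Foxp3+Gata3+ gate, with 971 cells or 4.50% ± 0.725 of a library (SD, n = 4 libraries here and throughout). Cells with Foxp3 and no Gata3 UMI formed the Foxp3+Gata3- gate (564 cells, 2.61% ± 0.619). Cells with at least 1 UMI of Il17a, the cytokine of Th17 cells, formed the Il17a+ gate (586 cells, 2.72% ± 1.05). Cells with at least 1 UMI of Ifng, the cytokine of Th1 cells, formed the Ifng+ gate (6599 cells, 30.7% ± 1.60). Cells with at least 10 UMIs of Gzma, which encodes a granule protease, formed the Gzma-high gate (1746 cells, 8.13% ± 0.749). The other 11035 cells (51.3% ± 1.62) met none of these rules and are called the rest. Levels of the gating genes were fixed by the rule and are not results: Foxp3 averaged 399 ± 75.1 CPM (UMIs of a gene per 1000000 UMIs of the sum) in the Foxp3+Gata3+ gate and 415 ± 36.2 CPM in the Foxp3+Gata3- gate.

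A library held 5459 to 6013 barcodes, and 21501 of 22904 cells were analysed, with a median of 3630 to 4173.5 UMIs in a library. The gates differed in depth, with a median of 4847 UMIs in the Foxp3+Gata3+ gate, 4016 in the Foxp3+Gata3- gate, 5215.5 in the Il17a+ gate, 3964 in the Ifng+ gate, 3576.5 in the Gzma-high gate and 3745 in the rest. Shares of cells are therefore given after each cell was thinned to 2000 UMIs. Pairs of libraries shared 34 to 55 cell barcodes, where random draws from the possible barcodes would give 42.0 to 47.0. Each of the 5 T cell markers (Cd3e, Cd3d, Cd3g, Cd4 and Trac) was detected in every gate, and their summed level averaged between 4558 CPM in the Il17a+ gate and 5759 CPM in the Gzma-high gate. Summed levels of 8 myeloid markers ran from 465 to 615 CPM in the Foxp3+Gata3+ gate, from 352 to 463 CPM in the Foxp3+Gata3- gate and from 293 to 381 CPM in the rest. Among B cell markers, Ms4a1 was at 0 in both Foxp3 gates, while Cd79b averaged 38.6 CPM in the Foxp3+Gata3+ gate, 38.4 CPM in the Foxp3+Gata3- gate and 6.64 CPM in the rest. Of the 4 epithelial markers, Epcam averaged 110 CPM in the Foxp3+Gata3+ gate, 53.2 CPM in the Foxp3+Gata3- gate and 15.3 CPM in the rest, while the keratin gene Krt8 was at 0.188, 0 and 0.161 CPM in the same 3 groups. Summed plasma cell markers ranged from 14.6 to 2436 CPM over the libraries of the Foxp3+Gata3+ gate and from 191 to 1003 CPM over those of the rest. As an alternative, cells with no UMI of Cd3e, Cd3d or Cd3g, or with at least 3 myeloid or at least 3 B cell markers, were left out. Epithelial markers were not used in this filter, and its rule for plasma cell markers could not be met, so it did not address those transcripts. Under it the counts of TNF receptor genes that differed in the Foxp3 gates stayed at 8 and 7 of 9. Of all genes, 32% and 20.9% were called in the same 2 comparisons with the rest.

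TNF receptor family members are surface proteins that bind trimeric ligands of the TNF family, many of them displayed on antigen-presenting cells. Those without a death domain, among them OX40, CD137, GITR, CD27, HVEM and the second TNF receptor, recruit adaptor proteins called TRAFs and activate NF-kappaB, which favours survival and proliferation of T cells. Fas, the first TNF receptor and death receptor 3 carry a death domain in the cytoplasm and can couple to caspases, though death receptor 3 is best known in T cells as a costimulatory receptor for the ligand encoded by Tnfsf15. OX40, CD137 and GITR are induced on activated T cells and are known to be carried by Treg cells.

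In the mouse genome (build mm10, GENCODE M21 annotation), 6 of the 9 genes lie on chromosome 4, and 2, Tnfrsf1a and Cd27, lie on chromosome 6. Fas lies on chromosome 19. Tnfrsf4 (chr4:156013843-156016612) and Tnfrsf18 (chr4:156026164-156028895) are both on the plus strand, 9551 bases apart, with 0 protein-coding genes between them. Tnfrsf9 lies on the same chromosome and strand (chr4:150914562-150946102). The 150 bases upstream of the RefSeq transcription starts of these 3 genes are shown because their transcripts were found together in the same cells more often than their single shares give, and because NF-kappaB and AP-1 act downstream of T cell activation. Capitals mark matches to the kappaB motif GGGNNTTCC or the AP-1 motif TGANTCA on either strand (RefSeq, GRCm38.p6, plus strand, 5′ to 3′; chr4:156013545-156013694, chr4:156026172-156026321, chr4:150920005-150920154 and chr4:150927849-150927998 in this order).
Tnfrsf4: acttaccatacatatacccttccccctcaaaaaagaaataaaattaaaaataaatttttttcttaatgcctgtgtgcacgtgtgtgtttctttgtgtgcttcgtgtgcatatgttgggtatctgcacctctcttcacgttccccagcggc
Tnfrsf18: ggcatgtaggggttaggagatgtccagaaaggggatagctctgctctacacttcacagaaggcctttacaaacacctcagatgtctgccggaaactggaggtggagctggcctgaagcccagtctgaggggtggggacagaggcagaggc
Tnfrsf9, start 1: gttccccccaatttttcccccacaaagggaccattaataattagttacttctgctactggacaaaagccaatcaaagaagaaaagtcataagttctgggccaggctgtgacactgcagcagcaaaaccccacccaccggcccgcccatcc
Tnfrsf9, start 2: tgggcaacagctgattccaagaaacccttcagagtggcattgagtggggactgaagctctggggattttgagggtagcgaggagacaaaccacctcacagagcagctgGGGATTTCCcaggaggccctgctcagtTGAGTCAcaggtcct
Start 2 of Tnfrsf9 held a kappaB match, GGGATTTCC, with its first base at position -42 from the start, and an AP-1 match, TGAGTCA, at -15, which do not overlap. Neither motif was found in the windows of start 1 of Tnfrsf9, of Tnfrsf4 or of Tnfrsf18. Among the 9 genes the AP-1 motif was found in 1 further window, that of Fas, with its first base at -211. In all 32817 RefSeq windows of 300 bases, 5.82% held the kappaB motif and 7.81% the AP-1 motif. A match of letters is a description and not a site.

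**Figure D1:**
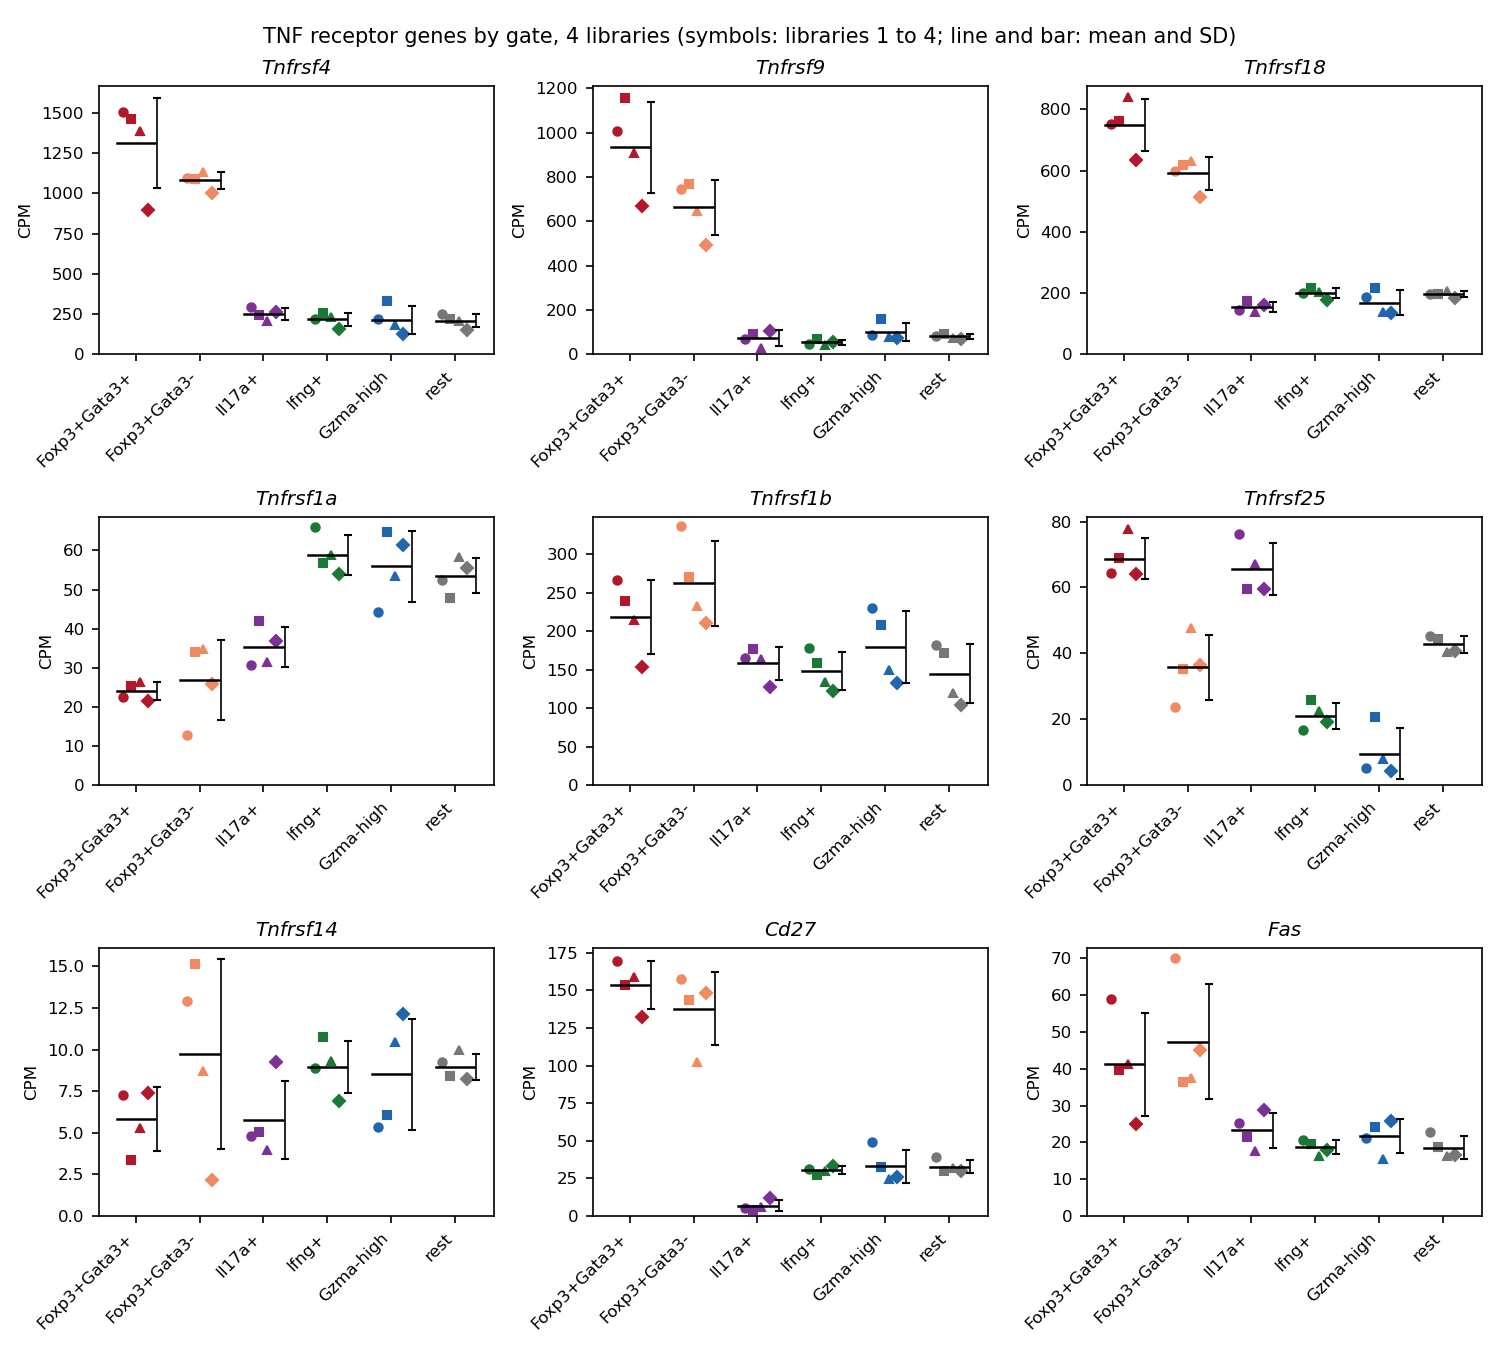
Level of each of the 9 receptor genes (y axis, CPM of the summed UMIs of a gate, linear axis from 0) in the 6 gates (x axis). Each symbol is 1 of the 4 libraries, and the line and bar give mean and SD; Tnfrsf4, Tnfrsf9, Tnfrsf18 and Cd27 sit higher in the 2 Foxp3 gates than in any other gate, with no overlap of libraries.

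Transcripts of 7 of the 9 receptors were higher in Foxp3+Gata3+ cells than in the rest and 1 was lower, where 30.9% of 9467 genes were called, 17.1% higher and 13.8% lower. In Foxp3+Gata3- cells 6 were higher and 1 was lower, where 20.4% of genes were called, 11.8% higher and 8.66% lower. The median log2 fold change over the 9 genes was 1.17 in Foxp3+Gata3+ cells, where that over all genes was -0.01, and 1.35 in Foxp3+Gata3- cells, where that over all genes was -0.01. The call is an adjusted p under 0.05 in edgeR's quasi-likelihood test on UMIs summed per library and gate, with library as a block and Benjamini-Hochberg adjustment over all genes. Comparisons with the rest share the sums of the rest. The summed level of 5 cell-cycle markers averaged 281 CPM in Foxp3+Gata3+ cells and 198 CPM in Foxp3+Gata3- cells, against 157 CPM in the rest, and its part was not tested. The receptors are taken by role.

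The costimulatory receptors stood furthest apart. Tnfrsf9 had 1006, 1155, 908 and 668 CPM in the 4 libraries of the Foxp3+Gata3+ gate and 744, 769, 645 and 491 CPM in the Foxp3+Gata3- gate, against 83.8, 91.2, 74.2 and 69.5 CPM in the rest. The lowest library of either Foxp3 gate was several times above the highest library of the rest. Its log2 fold change was 3.58 ± 0.14 (SE) in Foxp3+Gata3+ cells, 11.9-fold, and 3.06 ± 0.15 in Foxp3+Gata3- cells, 8.31-fold, with edgeR adjusted p of 1.68e-16 and 1.75e-14. Of all Tnfrsf9 UMIs, 40.9% came from Foxp3+Gata3+ cells and 14.0% from Foxp3+Gata3- cells. In the other gates the order of the means was Gzma-high at 99.0 ± 41.7 CPM, rest at 79.7 ± 9.73 CPM, Il17a+ at 72.4 ± 34.9 CPM and Ifng+ at 53.2 ± 10.5 CPM, and neighbours in this order overlapped. Of these gates only Ifng+ differed from the rest in the test, with 47.2, 67.0, 43.1 and 55.2 CPM and a log2 fold change of -0.61 ± 0.14 (edgeR adjusted p = 0.00521, lower in 4 of 4 libraries). That call was lost without library 1 (log2 fold change -0.53, adjusted p = 0.0868), without the library block (adjusted p = 0.168) and with DESeq2 (adjusted p = 0.0707), and over all alternatives its adjusted p ran from 1.20e-17 to 0.168. The Il17a+ cells gave a log2 fold change of -0.02 ± 0.20 against the rest (adjusted p = 0.95), and one of -1.36 (adjusted p = 0.00355) when cells were thinned to 2000 UMIs before gating. Under that setting the Foxp3+Gata3+, Foxp3+Gata3- and Il17a+ gates held 452, 510 and 483 cells.

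Tnfrsf4 had 1509, 1461, 1385 and 898 CPM in Foxp3+Gata3+ cells and 1097, 1091, 1132 and 1004 CPM in Foxp3+Gata3- cells, against 249, 221, 208 and 152 CPM in the rest. The groups did not overlap, and library 4 was lowest in all 3 groups. On the log2 scale Tnfrsf4 differed from the rest by 2.69 ± 0.13 in Foxp3+Gata3+ cells (6.47-fold) and 2.39 ± 0.13 in Foxp3+Gata3- cells (5.24-fold), with edgeR adjusted p of 3.51e-15 and 1.86e-13. The other gates lay close together, at 251 ± 36.4 CPM in Il17a+, 215 ± 43.0 CPM in Ifng+, 213 ± 87.0 CPM in Gzma-high and 207 ± 40.7 CPM in the rest, with overlap between each pair of neighbours. Il17a+ cells had a log2 fold change of 0.37 ± 0.14 over the rest (adjusted p = 0.0571, higher in 3 of 4 libraries), which passed the test without library 2 (0.43, adjusted p = 0.0225) and over all alternatives gave adjusted p between 6.69e-06 and 0.406.

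Tnfrsf18 had 754, 762, 841 and 634 CPM in Foxp3+Gata3+ cells and 600, 620, 631 and 513 CPM in Foxp3+Gata3- cells, against 196, 198, 207 and 182 CPM in the rest. These 3 groups were ordered the same way in every library, and neither Foxp3 gate overlapped the rest. In the test its log2 fold change was 1.97 ± 0.08 in Foxp3+Gata3+ cells (3.91-fold) and 1.59 ± 0.08 in Foxp3+Gata3- cells (3.01-fold), with edgeR adjusted p of 1.68e-16 and 1.06e-13. Il17a+ cells lay below the rest, at 143, 174, 136 and 160 CPM, with a log2 fold change of -0.30 ± 0.10 (adjusted p = 0.0210, lower in 4 of 4 libraries). That difference did not pass without library 1 (-0.26, adjusted p = 0.168) or library 3 (-0.25, adjusted p = 0.0635), and 7 of 14 alternatives ended the call, with adjusted p from 8.71e-05 to 0.168 over all of them. A transcript named Gm16008 overlaps Tnfrsf18 on the opposite strand, and whether reads were counted by strand is not given in the sources used here.

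Cd27, the receptor of CD70, set the Foxp3 gates and the Il17a+ gate apart in opposite directions. It had 170, 154, 159 and 132 CPM in Foxp3+Gata3+ cells and 157, 144, 103 and 148 CPM in Foxp3+Gata3- cells, against 39.0, 29.8, 31.9 and 30.2 CPM in the rest. Il17a+ cells had 5.44, 3.81, 5.93 and 12.3 CPM, from 9, 3, 3 and 12 UMIs, below every library of every other gate. The log2 fold change over the rest was 2.27 ± 0.10 in Foxp3+Gata3+ cells (4.82-fold), 2.06 ± 0.13 in Foxp3+Gata3- cells (4.18-fold) and -2.24 ± 0.27 in Il17a+ cells (4.72-fold lower), with edgeR adjusted p of 1.14e-15, 2.95e-12 and 7.79e-07. Ifng+ cells (30.6 ± 2.49 CPM) and Gzma-high cells (33.0 ± 11.3 CPM) did not differ from the rest in the test (adjusted p = 0.583 and 0.999). Vamp1 overlaps Cd27 on the opposite strand and averaged 8.82 CPM in Foxp3+Gata3+ cells and 12.6 CPM in the rest, and Camta1 overlaps Tnfrsf9 on the opposite strand and averaged 17.8 CPM in Foxp3+Gata3+ cells and 32.2 CPM in the rest, and neither neighbour was called higher in a Foxp3 gate. Without knowing the strand setting, reads of these overlapping genes cannot be told apart.

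**Figure D2:**
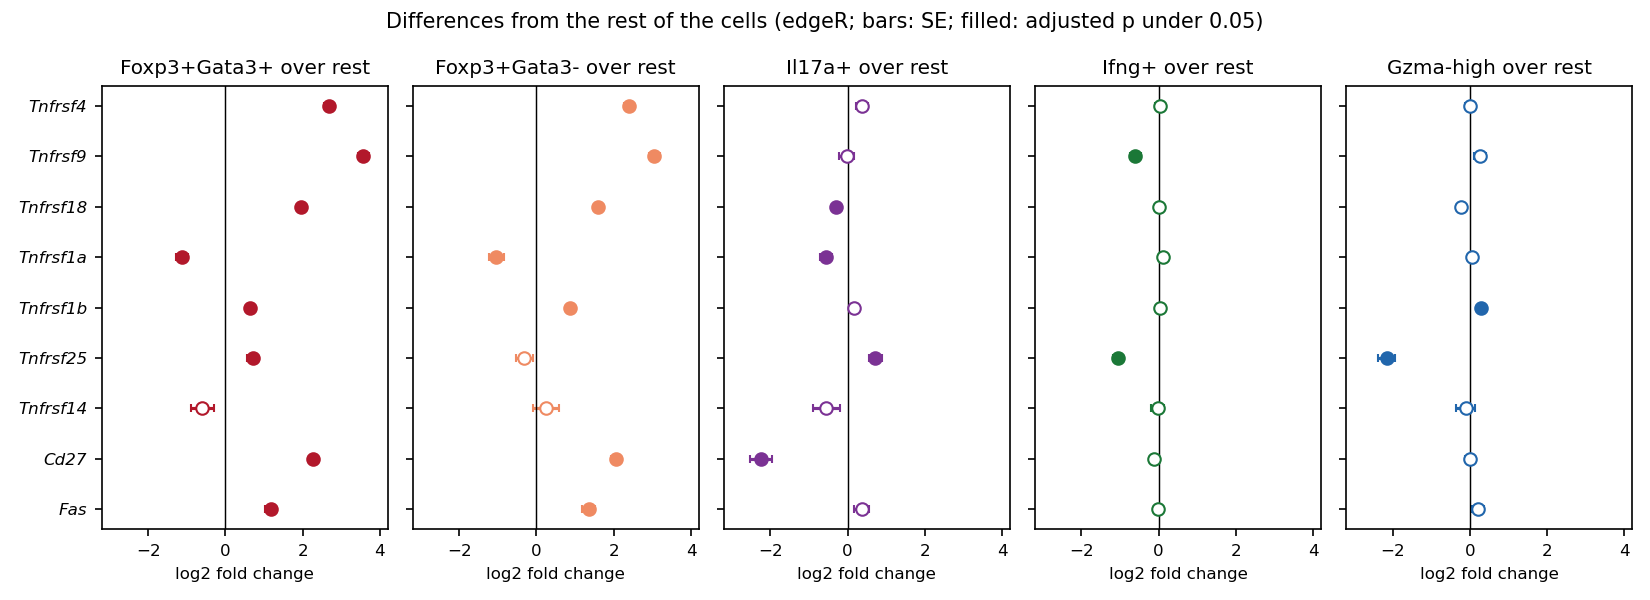
Log2 fold change over the rest (x axis) for each receptor gene (y axis) in the Foxp3+Gata3+, Foxp3+Gata3-, Il17a+, Ifng+ and Gzma-high gates, from left to right. Points are edgeR estimates from 4 libraries with SE bars, filled where the adjusted p is under 0.05; the largest is Tnfrsf9 at 3.58 in Foxp3+Gata3+ cells, and Tnfrsf1a is the filled point below 0 in both Foxp3 gates.

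The receptors of TNF moved in opposite directions in the Foxp3 gates. Tnfrsf1a, the receptor with a death domain, had 22.6, 25.4, 26.4 and 21.6 CPM in Foxp3+Gata3+ cells and 12.9, 34.0, 34.7 and 25.7 CPM in Foxp3+Gata3- cells, against 52.6, 47.9, 58.4 and 55.5 CPM in the rest. No library of either Foxp3 gate reached the lowest library of the rest. The log2 fold change was -1.12 ± 0.15 in Foxp3+Gata3+ cells (2.17-fold lower) and -1.04 ± 0.19 in Foxp3+Gata3- cells (2.05-fold lower), with edgeR adjusted p of 8.81e-07 and 1.99e-04. Il17a+ cells were lower as well, at 30.8, 41.9, 31.6 and 36.9 CPM, with a log2 fold change of -0.56 ± 0.16 (adjusted p = 0.00930, lower in 4 of 4 libraries). Without library 3 that adjusted p was 0.0511, and over all alternatives it ran from 8.09e-05 to 0.0511. Ifng+ cells (58.9 ± 5.12 CPM) and Gzma-high cells (56.0 ± 9.09 CPM) overlapped the rest (53.6 ± 4.50 CPM).

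Tnfrsf1b, the receptor without a death domain, had 267, 239, 214 and 154 CPM in Foxp3+Gata3+ cells and 336, 270, 233 and 210 CPM in Foxp3+Gata3- cells, against 182, 172, 119 and 104 CPM in the rest. Library 1 was highest and library 4 lowest in all 3 groups, and the Foxp3+Gata3+ gate overlapped the rest across libraries while being above it within each. The log2 fold change was 0.64 ± 0.07 in Foxp3+Gata3+ cells (1.56-fold) and 0.87 ± 0.08 in Foxp3+Gata3- cells (1.82-fold), with edgeR adjusted p of 1.11e-07 and 5.90e-09. Gzma-high cells had 230, 207, 149 and 132 CPM and a log2 fold change of 0.30 ± 0.07 over the rest (adjusted p = 0.00473, higher in 4 of 4 libraries). Without the library block that call was lost (adjusted p = 0.429), and over all alternatives the adjusted p ran from 5.87e-04 to 0.429. Il17a+ cells (158 ± 21.4 CPM) and Ifng+ cells (148 ± 25.2 CPM) did not differ from the rest (144 ± 38.4 CPM) in the test.

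Fas, the death receptor of Fas ligand, had 59.0, 39.6, 41.4 and 25.0 CPM in Foxp3+Gata3+ cells and 70.1, 36.5, 37.6 and 45.1 CPM in Foxp3+Gata3- cells, against 22.9, 18.7, 16.2 and 16.7 CPM in the rest. Every library of both Foxp3 gates was above every library of the rest, with library 1 highest in each group. Fas gave a log2 fold change of 1.17 ± 0.14 in Foxp3+Gata3+ cells (2.25-fold) and 1.35 ± 0.18 in Foxp3+Gata3- cells (2.55-fold), with edgeR adjusted p of 2.11e-07 and 1.57e-06. The means of the other gates, 23.4 CPM in Il17a+, 18.7 CPM in Ifng+ and 21.7 CPM in Gzma-high cells, did not pass the test against the rest at 18.6 CPM.

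Tnfrsf25 followed another order of gates. It had 64.3, 69.0, 77.6 and 64.1 CPM in Foxp3+Gata3+ cells, and 76.2, 59.7, 67.2 and 59.5 CPM in Il17a+ cells, against 45.4, 44.5, 40.3 and 40.8 CPM in the rest. It had 16.7, 25.7, 22.5 and 19.2 CPM in Ifng+ cells. In Gzma-high cells it had 5.34, 20.7, 8.0 and 4.23 CPM, from 10, 41, 13 and 8 UMIs. The first 2 gates lay wholly above the rest and the last 2 wholly below it. The log2 fold change over the rest was 0.71 ± 0.14 in Foxp3+Gata3+ cells, 0.71 ± 0.17 in Il17a+ cells, -1.06 ± 0.12 in Ifng+ cells (2.08-fold lower) and -2.15 ± 0.22 in Gzma-high cells (4.45-fold lower), with edgeR adjusted p of 3.11e-04, 0.00220, 8.32e-07 and 6.92e-08. Foxp3+Gata3- cells had 23.7, 35.3, 47.8 and 36.5 CPM, overlapping the rest (log2 fold change -0.31 ± 0.23, adjusted p = 0.382). Tnfrsf14 had the fewest UMIs of the 9 genes, 839 in all, which limits its precision, and it did not pass the test in any of the 7 comparisons. It averaged between 5.77 ± 2.36 CPM in Il17a+ cells and 9.72 ± 5.71 CPM in Foxp3+Gata3- cells, with overlap between all neighbours in the order of gates.

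In the effector gates 4 of 9 receptors differed from the rest in Il17a+ cells, 2 in Ifng+ cells and 2 in Gzma-high cells. Il17a+ cells had 1 receptor higher (Tnfrsf25) and 3 lower (Cd27, Tnfrsf1a and Tnfrsf18), where 25.9% of genes were called, 14.9% higher and 11% lower. Ifng+ cells had 0 higher and 2 lower (Tnfrsf25 and Tnfrsf9), where 10.2% of genes were called, 5.1% higher and 5.05% lower. Gzma-high cells had 1 higher (Tnfrsf1b) and 1 lower (Tnfrsf25), where 15.2% of genes were called, 8.05% higher and 7.15% lower. The median log2 fold change over the 9 receptors was -0.02, -0.01 and 0.00 in these 3 gates, and that over all genes was -0.03, -0.00 and 0.00. The summed level of 5 cell-cycle markers averaged 592 CPM in Il17a+ cells, 280 CPM in Ifng+ cells and 381 CPM in Gzma-high cells, against 157 CPM in the rest, and its part in these differences was not tested. Cd8a ranged from 48.6 to 200 CPM over the libraries of the Gzma-high gate and from 11.8 to 68.3 CPM over those of the Ifng+ gate, against 5.40 to 16.2 CPM in the rest, and Cd8b1 averaged 18.7 ± 16.9 CPM in Gzma-high and 6.07 ± 3.40 CPM in Ifng+ cells, against 9.20 ± 3.82 CPM in the rest. Their part in the differences of these gates was not tested.

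Set directly against Ifng+ cells, Il17a+ cells had 2 receptors higher and 3 lower, where 25.6% of genes were called, 14.5% higher and 11.1% lower. Tnfrsf25 was 3.40-fold higher in Il17a+ cells (log2 fold change 1.77 ± 0.19, edgeR adjusted p = 6.42e-08) and Cd27 was 4.36-fold lower (-2.13 ± 0.28, adjusted p = 2.26e-06), each in 4 of 4 libraries. Tnfrsf1a was 1.61-fold lower in Il17a+ cells (-0.69 ± 0.16, adjusted p = 0.00182). Tnfrsf18 (-0.30 ± 0.10, adjusted p = 0.0205) and Tnfrsf9 (0.58 ± 0.20, adjusted p = 0.0367) were past the threshold as well. Without library 1 the adjusted p of Tnfrsf18 was 0.173 and that of Tnfrsf9 0.121, Tnfrsf18 was also lost without library 3 (0.0536), and Tnfrsf9 without library 2 (0.0640) or library 4 (0.146). Of 14 alternatives, 7 ended the call of Tnfrsf18 and 8 that of Tnfrsf9. Over all alternatives the adjusted p ran from 1.75e-04 to 0.173 for Tnfrsf18 and from 2.83e-07 to 0.769 for Tnfrsf9, which changed sign to -0.27 when cells were thinned to 2000 UMIs before gating.

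Between the Foxp3 gates, 3 receptors were higher in Foxp3+Gata3+ cells and 0 were lower, where 2.55% of genes were called, 1.62% higher and 0.93% lower. Tnfrsf25 had 64.3, 69.0, 77.6 and 64.1 CPM in Foxp3+Gata3+ cells, against 23.7, 35.3, 47.8 and 36.5 CPM in Foxp3+Gata3- cells, without overlap. Its log2 fold change was 1.03 ± 0.24, or 2.04-fold (edgeR adjusted p = 0.0143). Tnfrsf18 was higher by 0.38 ± 0.08 on the log2 scale (1.30-fold, adjusted p = 0.0111) and Tnfrsf9 by 0.52 ± 0.14 (1.43-fold, adjusted p = 0.0450), each in 4 of 4 libraries. Tnfrsf4 (0.30 ± 0.13, adjusted p = 0.298) and Tnfrsf1b (-0.23 ± 0.09, adjusted p = 0.227) did not pass. All 3 calls were lost without library 1, with adjusted p of 0.0807 for Tnfrsf25, 0.0769 for Tnfrsf18 and 0.162 for Tnfrsf9. Tnfrsf25 was also lost without library 3 (0.0579) and Tnfrsf9 without library 2 (0.190) or library 3 (0.140), while Tnfrsf4 passed without library 4 (0.44, adjusted p = 0.0317). Of 14 alternatives, 8 ended the call of Tnfrsf9, 2 that of Tnfrsf18 and 2 that of Tnfrsf25. Over all alternatives the adjusted p ran from 1.12e-08 to 0.0807 for Tnfrsf25, 5.48e-07 to 0.126 for Tnfrsf18, 3.49e-13 to 0.361 for Tnfrsf9 and 4.67e-06 to 0.688 for Tnfrsf4. The Foxp3+Gata3+ gate had the higher median depth, as given above, and the part of depth in these differences was not tested.

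**Figure D3:**
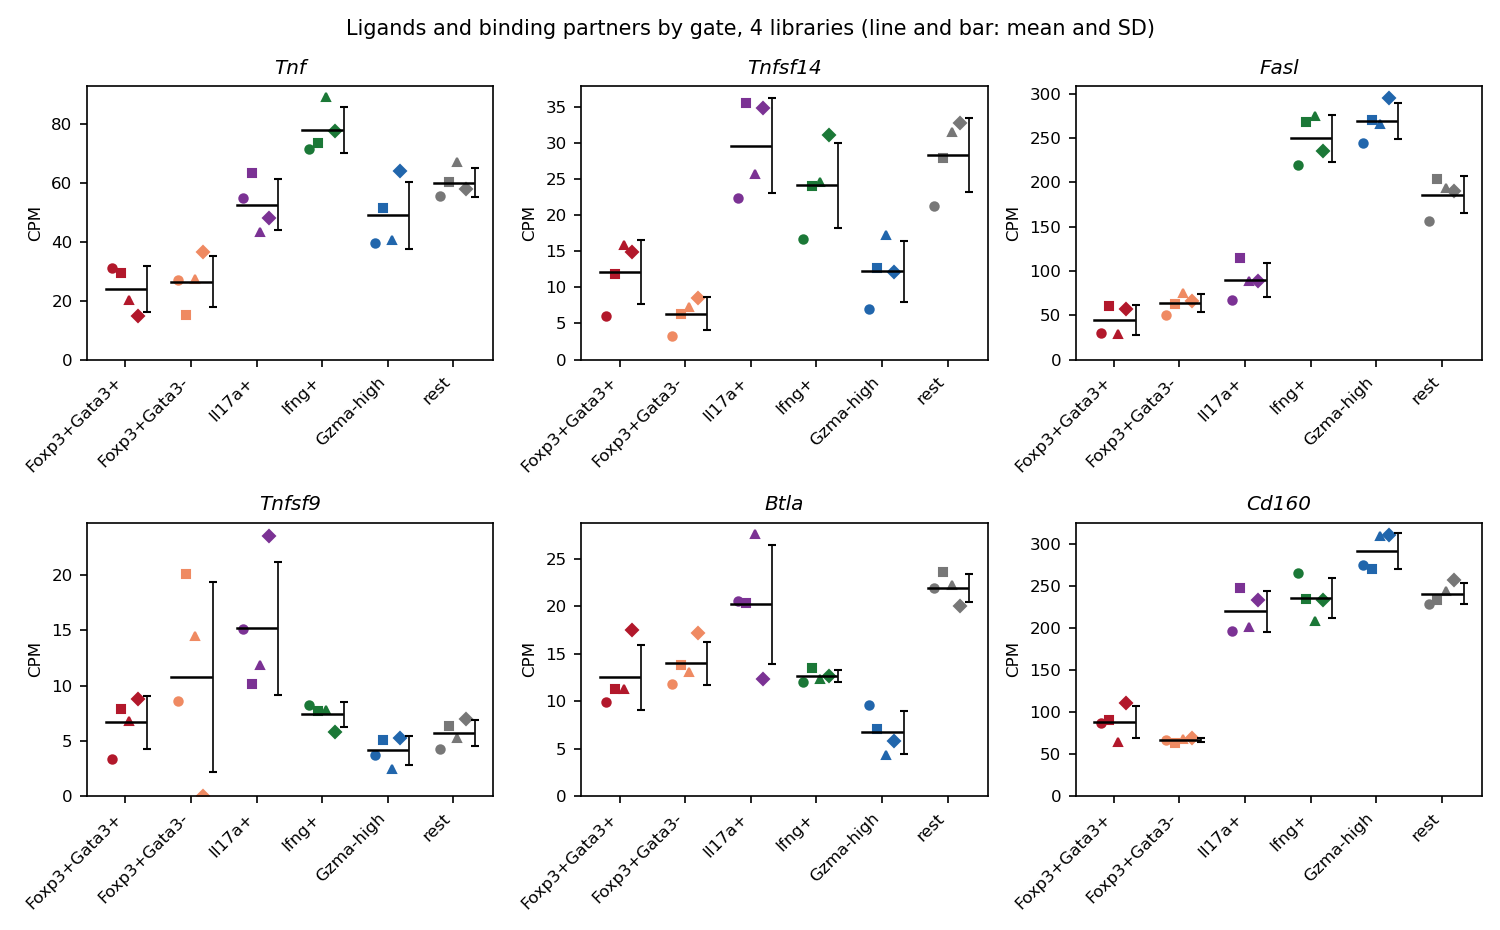
Levels (y axis, CPM, linear axes from 0) of ligands and binding partners of the 9 receptors in the 6 gates (x axis), each symbol 1 of 4 libraries, with mean and SD. Tnf, Fasl and Cd160 are lower in the 2 Foxp3 gates than in the rest in every library.

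Ligand transcripts went mostly the other way in the Foxp3 gates. Of 17 TNF family ligand genes on the list, 11 were tested, and in each Foxp3 gate 7 were lower than in the rest and 1 was higher. Of all genes, 13.8% were lower and 17.1% higher in Foxp3+Gata3+ cells, and 8.66% lower and 11.8% higher in Foxp3+Gata3- cells. The median log2 fold change of the tested ligands was -0.92 in Foxp3+Gata3+ cells and -0.87 in Foxp3+Gata3- cells, beside -0.01 over all genes in both. Those named by the smallest adjusted p were Cd40lg, the ligand by which helper T cells activate B cells and dendritic cells (log2 fold change -2.04 ± 0.10 in Foxp3+Gata3+ cells, -2.06 ± 0.11 in Foxp3+Gata3- cells), Fasl (-2.02 ± 0.12 and -1.56 ± 0.14) and Tnfsf14, which encodes LIGHT, the ligand of HVEM (-1.20 ± 0.14 and -2.20 ± 0.24). Their edgeR adjusted p lay between 6.03e-15 and 1.61e-07.

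Paired with their receptors, Fasl averaged 44.2 ± 17 CPM in Foxp3+Gata3+ cells and 63.9 ± 10.2 CPM in Foxp3+Gata3- cells, against 186 ± 20.7 CPM in the rest. It was higher in Ifng+ cells (250 ± 26.6 CPM, log2 fold change 0.41 ± 0.09, edgeR adjusted p = 0.00183) and Gzma-high cells (269 ± 20.7 CPM, 0.52 ± 0.09, adjusted p = 1.91e-04), and lower in Il17a+ cells (89.6 ± 19.3 CPM, -1.03 ± 0.12, adjusted p = 3.28e-07). Tnf averaged 23.9 ± 7.70 CPM in Foxp3+Gata3+ cells, 26.5 ± 8.76 CPM in Foxp3+Gata3- cells and 78.0 ± 7.86 CPM in Ifng+ cells, against 60.1 ± 4.97 CPM in the rest. It was lower in the Foxp3 gates (-1.26 ± 0.16 and -1.24 ± 0.21, adjusted p = 4.57e-07 and 7.04e-05) and higher in Ifng+ cells (0.36 ± 0.09, adjusted p = 0.00612). Lta, which encodes lymphotoxin alpha, averaged between 5.17 ± 2.15 CPM in Gzma-high cells and 11.3 ± 2.02 CPM in Il17a+ cells.

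The ligand of CD137, Tnfsf9, averaged 15.2 ± 5.98 CPM in Il17a+ cells, against 5.71 ± 1.18 CPM in the rest (log2 fold change 1.54 ± 0.32, edgeR adjusted p = 6.45e-04). It averaged 6.69 ± 2.39 CPM in Foxp3+Gata3+ cells and 10.8 ± 8.61 CPM in Foxp3+Gata3- cells, where it did not pass the test (adjusted p = 0.599 and 0.0569). Ligands of OX40 (Tnfsf4), GITR (Tnfsf18), death receptor 3 (Tnfsf15) and CD27 (Cd70) were scarcely counted: their mean levels reached at most 1.34 CPM for Tnfsf4, 0.0449 CPM for Tnfsf18, 0.448 CPM for Tnfsf15 and 1.84 CPM for Cd70 in any gate. Antigen-presenting cells, among the known sources of these ligands, were not the target of the sort, and the part of this in the low counts was not tested. The further partners of HVEM, Btla and Cd160, were lower in the Foxp3 gates, at 12.5 ± 3.40 and 14.0 ± 2.28 CPM for Btla against 21.9 ± 1.49 CPM in the rest, and 88.5 ± 18.8 and 66.6 ± 2.55 CPM for Cd160 against 241 ± 12.4 CPM. For Cd160 the log2 fold change was -1.40 ± 0.09 in Foxp3+Gata3+ cells and -1.85 ± 0.12 in Foxp3+Gata3- cells (adjusted p = 3.24e-12 and 2.95e-12).

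In the effector gates ligands were called in both directions. In Il17a+ cells 3 of the 11 tested ligands were higher and 2 lower, where 14.9% of all genes were higher and 11% lower, with Tnfsf8, the ligand of CD30, at a log2 fold change of 0.95 ± 0.13 (edgeR adjusted p = 5.65e-06). In Ifng+ cells 3 were higher and 3 lower, where 5.1% of all genes were higher and 5.05% lower, with Tnfsf8 at -0.74 ± 0.12 (adjusted p = 1.04e-04). In Gzma-high cells 2 were higher and 6 lower, where 8.05% of all genes were higher and 7.15% lower. Among them were Tnfsf11, the gene of RANK ligand, at -1.49 ± 0.12 (adjusted p = 1.12e-09), Tnfsf14 at -1.24 ± 0.13 (adjusted p = 1.18e-07) and Tnfsf10, the gene of the death ligand TRAIL, at 0.68 ± 0.08 (adjusted p = 1.39e-06).

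Among signalling genes below the receptors, more were higher than lower in each Foxp3 gate. Of 16 adaptor genes, 9 were higher and 1 lower in each Foxp3 gate, with median log2 fold changes of 0.32 and 0.35 beside -0.01 over all genes in both. Traf1, an adaptor of OX40, CD137 and GITR, was higher in Foxp3+Gata3+ cells (0.87 ± 0.09, edgeR adjusted p = 3.14e-08) and in Foxp3+Gata3- cells (0.85 ± 0.10, adjusted p = 3.38e-07), as was Tank, which binds TRAFs (0.84 ± 0.08 and 0.59 ± 0.10). The ubiquitin ligase gene Birc3 was among the first 3 in Foxp3+Gata3+ cells (0.63 ± 0.09) and its relative Birc2 in Foxp3+Gata3- cells (0.69 ± 0.08). Of 14 NF-kappaB genes, 8 were higher and 1 lower in Foxp3+Gata3+ cells, and 7 were higher and 2 lower in Foxp3+Gata3- cells. Rel, the subunit c-Rel, gave 1.60 ± 0.08 and 1.22 ± 0.08 in the 2 gates, Nfkbia, the inhibitor induced by NF-kappaB itself, 1.44 ± 0.10 and 1.17 ± 0.10, and Nfkb1 1.18 ± 0.10 and 0.71 ± 0.12. Of the adaptors, 2 were higher and 3 lower in Il17a+ cells, 1 higher and 0 lower in Ifng+ cells, and 2 higher and 1 lower in Gzma-high cells. Of the NF-kappaB genes, 5 were higher and 2 lower in Il17a+ cells, 4 higher and 0 lower in Ifng+ cells, and 0 higher and 1 lower in Gzma-high cells. These counts stand beside the shares of all genes called in the same gates. Those were 17.1% higher and 13.8% lower in Foxp3+Gata3+, and 11.8% and 8.66% in Foxp3+Gata3-. In the effector gates they were 14.9% higher and 11% lower in Il17a+, 5.1% and 5.05% in Ifng+, and 8.05% and 7.15% in Gzma-high.

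Of 19 other genes of the receptor family, 5 passed the filter. In Foxp3+Gata3+ cells 3 were higher and 1 was lower, led by Tnfrsf8, which encodes CD30, at 14.7 CPM against 1.66 CPM in the rest (log2 fold change 3.17 ± 0.27, edgeR adjusted p = 3.77e-10). Tnfrsf13b (1.01 ± 0.12) and Tnfrsf10b (1.19 ± 0.21) were the others, and the lower gene was Relt (-0.86 ± 0.23, adjusted p = 0.00455), named here after its value was seen. In Foxp3+Gata3- cells 2 were higher, Tnfrsf8 (3.14 ± 0.34) and Tnfrsf13b (0.72 ± 0.17), and in Il17a+ cells 1 was, Tnfrsf8 (1.69 ± 0.42, adjusted p = 0.00340). Of all genes, 17.1% were higher and 13.8% lower in Foxp3+Gata3+ cells. These shares were 11.8% and 8.66% in Foxp3+Gata3- cells, and 14.9% and 11% in Il17a+ cells. Tnfrsf26 was lower in Ifng+ cells (-0.74 ± 0.23, adjusted p = 0.0388) and in Gzma-high cells (-1.28 ± 0.38, adjusted p = 0.0216).

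At single-cell level the same receptors were detected in far larger shares of Foxp3 cells. At 2000 UMIs, Tnfrsf4 was found in 78.0% ± 5.90 of Foxp3+Gata3+ cells and 64.4% ± 8.61 of Foxp3+Gata3- cells, against 17.5% ± 3.10 of the rest. Tnfrsf9 was found in 60.0% ± 6.67 and 47.2% ± 8.26, against 6.14% ± 1.01, and Tnfrsf18 in 74.0% ± 2.91 and 62.2% ± 5.06, against 29.6% ± 1.53. Without thinning, the shares with Tnfrsf4 were 91.3% ± 1.82, 77.1% ± 8.45 and 24.4% ± 5.01 in the same order. Free RNA was gauged at 2000 UMIs in 27 cells with markers of myeloid, B or plasma cells and no Cd3 UMI (median 7818 UMIs before thinning). Of these, 0 had Tnfrsf4, Tnfrsf9, Tnfrsf25, Tnfrsf14 or Cd27, which allows a share of up to 11.1%. Each of Tnfrsf18, Tnfrsf1b and Fas was found in 2 of them (7.41%, exact 95% interval 0.910% to 24.3%, counting error only) and Tnfrsf1a in 4 (14.8%, 4.19% to 33.7%). In the rest at 2000 UMIs, Tnfrsf1a was found in 10.9% ± 0.693 and Fas in 3.26% ± 0.585, at or under those shares. The 27 cells therefore cannot tell these shares from background. Whether the 27 cells transcribe these genes themselves was not tested. They were picked for having no Cd3 UMI, which favours cells with little free T cell RNA, so their shares may understate the background. The share of 6.14% for Tnfrsf9 in the rest lies under the limit of 11.1%, so the 27 cells cannot tell it from background either.

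**Figure D4:**
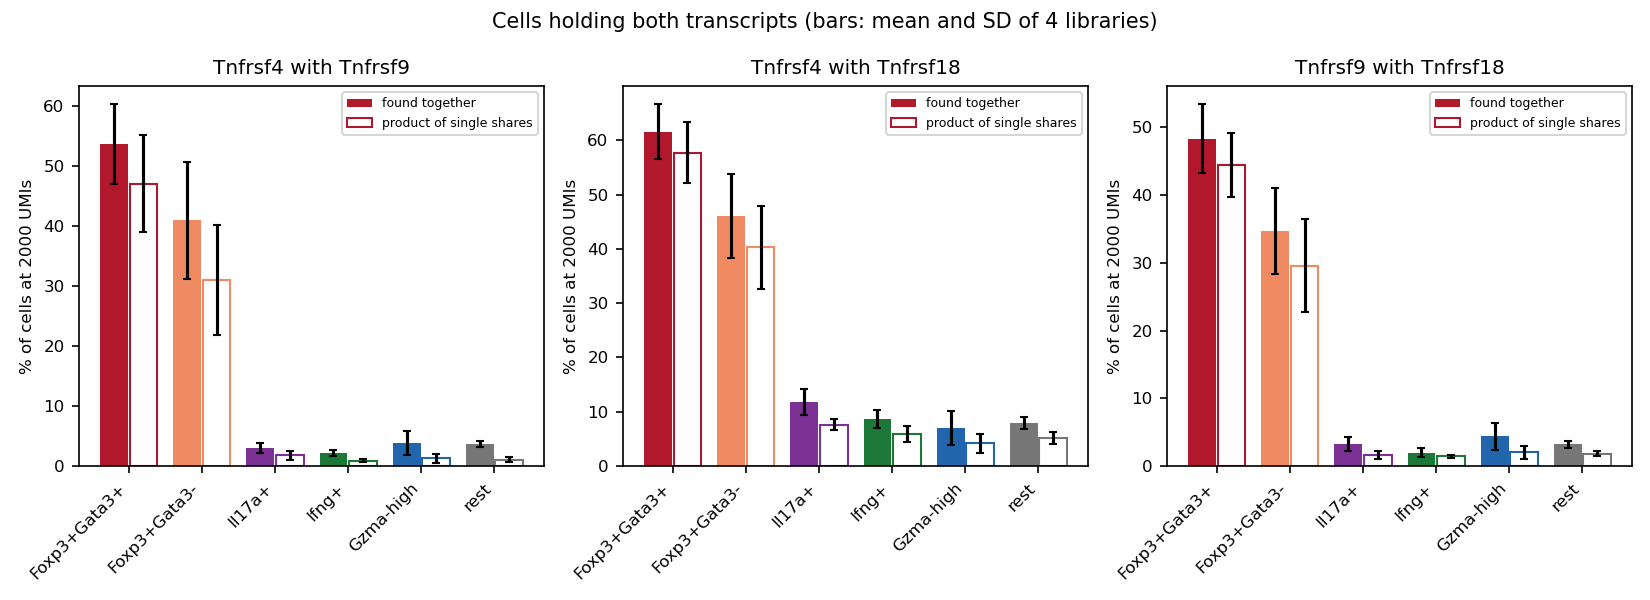
Share of cells (y axis, %, at 2000 UMIs) with a UMI of both genes of a pair (filled bars) beside the product of the shares with each gene (open bars), in the 6 gates (x axis). Bars are mean and SD of 4 libraries; the filled bar is the higher one in every gate for Tnfrsf4 with Tnfrsf9, Tnfrsf4 with Tnfrsf18 and Tnfrsf9 with Tnfrsf18.

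Tnfrsf4, Tnfrsf9 and Tnfrsf18 were detected together in 43.7% ± 4.91 of Foxp3+Gata3+ cells and 30.7% ± 8.24 of Foxp3+Gata3- cells. In the other gates the share was 1.93% ± 0.944 in Il17a+, 1.23% ± 0.600 in Ifng+, 2.62% ± 1.65 in Gzma-high and 2.49% ± 0.312 in the rest. The product of the 3 single shares was lower each time, at 34.8% in Foxp3+Gata3+ cells, 19.5% in Foxp3+Gata3- cells and 0.326% in the rest. Conversely, none of the 3 was detected in 7.75% ± 2.0 of Foxp3+Gata3+ cells and 17.2% ± 5.81 of Foxp3+Gata3- cells, against 59.2% ± 3.50 of the rest. A Foxp3+Gata3+ cell held UMIs of 2.99 ± 0.218 of the 9 receptor genes on average, a Foxp3+Gata3- cell of 2.63 ± 0.281, and a cell of the rest of 1.06 ± 0.115.

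Each of the 3 pairs of these genes exceeded its product in 4 of 4 libraries in every gate. For Tnfrsf4 with Tnfrsf9 the observed share was 1.14 times the product in Foxp3+Gata3+ cells, 1.32 times in Foxp3+Gata3- cells, 1.65 times in Il17a+ cells, 2.45 times in Ifng+ cells, 2.97 times in Gzma-high cells and 3.39 times in the rest. The largest ratio possible falls as the single shares rise, so these ratios are not compared between gates. In the rest, 60.8% ± 4.26 of cells with Tnfrsf9 also had Tnfrsf4, against 14.7% ± 3.03 of cells without Tnfrsf9. These shares were 89.2% ± 1.57 against 61.5% ± 8.86 in Foxp3+Gata3+ cells and 85.8% ± 7.55 against 45.1% ± 6.85 in Foxp3+Gata3- cells. In Il17a+ cells the count behind the ratio was small, 18 cells with both Tnfrsf4 and Tnfrsf9. Once cells that also met the rule of a later gate were left out, 0 of 36 pairs in that gate exceeded their product in 4 of 4 libraries. Over all 36 pairs of the 9 genes, 12 exceeded the product in every library in Foxp3+Gata3+ cells, 8 in Foxp3+Gata3-, 3 in Il17a+, 7 in Ifng+, 6 in Gzma-high and 15 in the rest. Some pairs exceed it in every library without association, and that number was not computed. The gates held from 545 (Foxp3+Gata3-) to 10555 cells (rest) at 2000 UMIs, so these counts are not compared between gates. Pairs with Tnfrsf1a lay on both sides of their product. In Foxp3+Gata3+ cells, Tnfrsf1a with Tnfrsf9 was found in 1.49% ± 1.23 where the product was 2.70% ± 0.961, below it in 4 of 4 libraries, and Tnfrsf1a with Fas in 0.722% ± 0.141 where the product was 0.322% ± 0.149, above it in 4 of 4, from 7 cells. In the rest, Tnfrsf1a with Tnfrsf4 was found in 1.01% ± 0.527 of cells where the product was 1.88% ± 0.259, below it in 4 of 4.

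**Figure D5:**
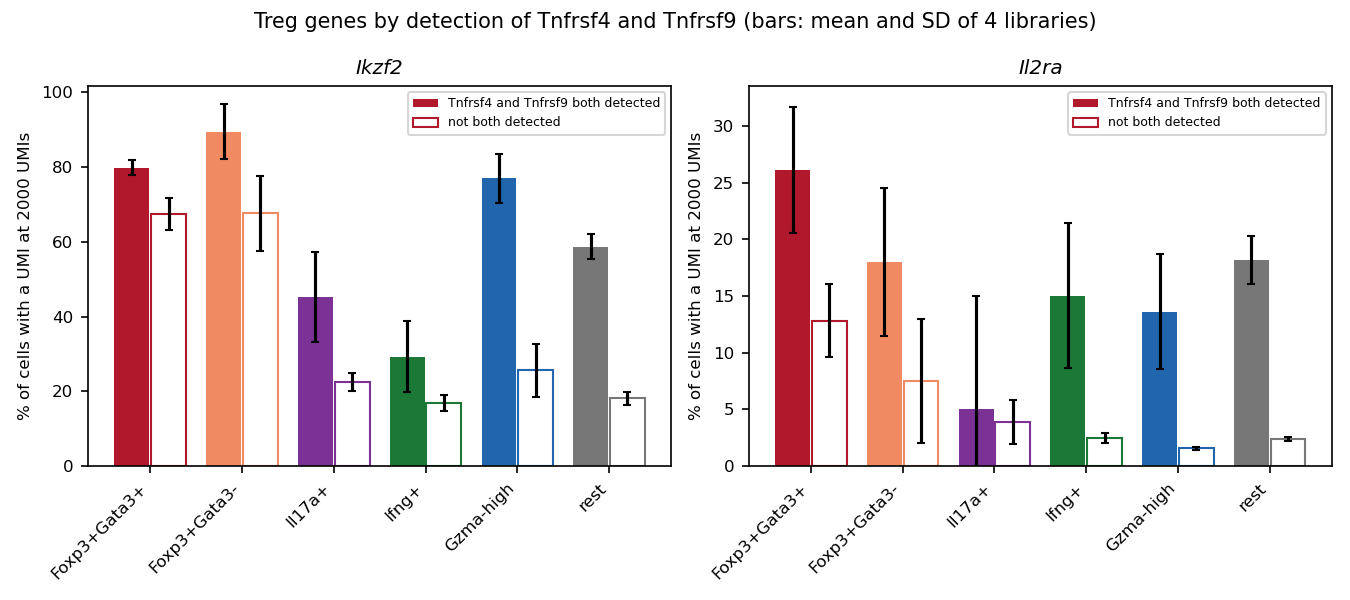
Share of cells (y axis, %, at 2000 UMIs) with a UMI of Ikzf2 or Il2ra among cells with both Tnfrsf4 and Tnfrsf9 (filled bars) and among the other cells of the same gate (open bars), in the 6 gates (x axis). Bars are mean and SD of 4 libraries; in the rest Ikzf2 is at 58.6% beside 18.1%.

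Outside the Foxp3 gates, Treg transcripts were compared between cells with both Tnfrsf4 and Tnfrsf9 and the other cells of the same gate, as a description without a test. Ikzf2 had the larger mean share in cells with both receptors in each of these 4 gates. In the rest, where no cell had a Foxp3 UMI, 392 cells had both receptors at 2000 UMIs, and 58.6% ± 3.35 of them had Ikzf2, which encodes the Treg factor Helios, against 18.1% ± 1.84 of the other cells of that gate. For Il2ra, the high-affinity interleukin receptor chain of Treg and activated cells, the shares were 18.2% ± 2.13 against 2.39% ± 0.144, for Ikzf4 11.3% ± 1.49 against 0.80% ± 0.171, and for Cd27 17.7% ± 2.82 against 4.87% ± 0.519. For these 4 genes the ranges of the libraries did not overlap between the 2 sets of cells. Ctla4 was found in 79.1% ± 6.90 against 51.4% ± 6.66, also without overlap. For Mki67, a marker of cycling cells, the order was reversed, with 1.26% ± 1.12 against 3.41% ± 0.309. In the Gzma-high gate 65 cells had both receptors and 76.9% ± 6.56 of them had Ikzf2, against 25.7% ± 7.09. In the Ifng+ gate 141 cells had both and the difference was smaller, 29.2% ± 9.52 against 16.9% ± 2.03, with overlap between libraries. For Cd27 in the Ifng+ gate the shares were 4.33% ± 3.79 against 5.42% ± 0.713. Il2ra in that gate was found in 15.0% ± 6.37 against 2.50% ± 0.459, without overlap between libraries. In the Il17a+ gate only 18 cells had both receptors: Ikzf2 was found in 45.2% ± 12.1 against 22.5% ± 2.49, Il2ra in 5.0% ± 10.0 against 3.88% ± 1.94, and Ikzf4 and Cd27 in 0 of the 18 cells against 0.717% ± 0.496 and 1.00% ± 1.45. How many of these cells carry Foxp3 mRNA that was not captured was not tested.

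Across the 24 sums of gate and library, the levels of Tnfrsf4, Tnfrsf9 and Tnfrsf18 were correlated, with both Foxp3 gates far above the other gates for each gene. Pearson's r of log2 CPM was 0.97 for Tnfrsf4 with Tnfrsf18, 0.95 for Tnfrsf4 with Tnfrsf9 and 0.96 for Tnfrsf9 with Tnfrsf18, and -0.82 for Tnfrsf1a with Fas. These sums share libraries, 6 to each, so the values are descriptions. The values here and below include the split between the Foxp3 gates and the others, and correlation outside the Foxp3 gates was not computed. There the highest mean was in Il17a+ for Tnfrsf4 (251 CPM), in Gzma-high for Tnfrsf9 (99.0 CPM) and in Ifng+ for Tnfrsf18 (199 CPM). Il17a+ was the lowest gate for Tnfrsf18 (153 CPM). Among 8795 genes, those most like Tnfrsf4 were Man1a (r = 0.97) and Itgav (0.97), those most like Tnfrsf9 were Ikzf2 (0.97) and Itih5 (0.96), and those most like Tnfrsf18 were Ccrl2 (0.98) and Man1a (0.98). For Cd27 they were Sdcbp2 and Shisa5 (0.94 each), for Fas Pigx (0.92) and Fmnl1 (0.91), for Tnfrsf1a Soat2 (0.94) and St3gal6 (0.90), and for Tnfrsf1b Skil (0.92) and Sqstm1 (0.91). Tnfrsf25 was most like Gpr183 and Rab4a (0.89 each), and Tnfrsf14 had the weakest likeness, with Rpusd1 (0.76) and Fgr (0.75).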

How the data were processed

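The authors' deposited files hold UMI counts per gene and cell for 4 libraries, with no normalization; per the submitters' processing notes they were made with Cell Ranger 3.0.2 on build mm10, and strand handling is not given in the sources used here. From these counts, barcodes below 500 detected genes or 1000 UMIs, or above 10% of UMIs from mitochondrial genes, were dropped, and the cells with the highest Scrublet scores (scanpy 1.11.5) were removed as doublets at a rate of 0.8% per 1000 barcodes. Of 22904 barcodes 22534 passed and 1033 were removed as doublets. UMIs were summed per library and gate, giving 24 sums, and tested with edgeR 4.0.16 (quasi-likelihood test, filter on low counts, TMM factors of 0.946 to 1.03, library as a block since the same libraries supply every gate, 15 residual degrees of freedom). The fit was tested on simulated data. DESeq2 1.42.0 was an alternative, beside library size alone, no filter, no block, thinning before gating, other cell filters and gates, and leaving out each library. CPM divide the UMIs of a gene by all UMIs of the sum, times 1000000. Co-detection was described at 2000 UMIs in 20752 cells against the product of single shares.

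The 9 receptor genes, the gates and the pathway lists were chosen with earlier results of these data known. All 9 receptors are named, with the ligands and partners of each, up to 3 called genes per list taken by lowest adjusted p, and the 2 genes most alike to each receptor. Levels are not compared between genes, since 5′ tags and transcript length were not corrected for. Fewer transcripts per cell and fewer cells carrying them cannot be told apart in the sums. Sequences are from RefSeq (GRCm38.p6), in which 9 of 9 genes matched.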

Additional observations from a re-analysis of the deposited data

Results flagged for a closer look

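Of 54 groups of 4 libraries (9 receptor genes in 6 gates), 1 held a library far from the others by Dixon's criterion at the 95% level, which chance gives in about 1 of 20 groups. Tnfrsf9 in the Gzma-high gate was at 161 CPM in library 2, while the other 3 libraries lay between 70.8 and 85.4 CPM. In the same gate, library 2 was also the highest for Tnfrsf4 (329 CPM, others 123 to 218 CPM), Tnfrsf18 (217 CPM, others 133 to 187 CPM) and Tnfrsf25 (20.7 CPM, others 4.23 to 8.0 CPM).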

How the results depend on the processing

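Each of 63 receptor values was recomputed under 14 alternatives. Of 31 calls, 22 kept their direction and passed under every alternative, among them 8 of 8 in Foxp3+Gata3+ and 7 of 7 in Foxp3+Gata3- cells over the rest; 9 were lost under at least 1. Of 32 values that did not pass, 14 changed sign under some alternative. The pairing is by library, since the same library supplies every gate. Without that replicate block the receptors called numbered 1 in Ifng+ over rest, 1 in Gzma-high over rest, 1 in Foxp3+Gata3+ over Foxp3+Gata3- and 3 in Il17a+ over Ifng+. The shares of all genes called there were 3.89%, 9.24%, 1.16% and 21.2% in the same order. DESeq2 called 1 in Ifng+ over rest, and 9.23% of all genes. With no filter on low counts 4 were called in Gzma-high over rest, beside 9.25% of all genes. With thinning to 2000 UMIs before gating 4 were called in Gzma-high over rest and 3 in Il17a+ over Ifng+, beside 13.3% and 11.5% of all genes. Without cells of 2 gates 3 were called in Il17a+ over Ifng+, beside 19.3% of all genes. Leaving out 1 library at a time gave 2 to 5 receptors in Il17a+ over rest, 1 to 2 in Ifng+ over rest, 0 to 4 in Foxp3+Gata3+ over Foxp3+Gata3- and 3 to 5 in Il17a+ over Ifng+. The shares of all genes called there ran from 17.6% to 21.8%, 6.57% to 8.51%, 1.25% to 2.4% and 17.8% to 22.1%, in the same order. Thinning before gating turned Tnfrsf25 in Foxp3+Gata3- over rest to 0.26 and Tnfrsf9 in Il17a+ over Ifng+ to -0.27 (log2). Tnfrsf9 in Il17a+ over rest turned to 0.0704 with all deposited barcodes, 0.0733 without doublet removal and 0.0063 without cells of other types, and ran from -0.30 to 0.13 with 1 library left out.

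Pairs above their product in every library numbered 16 in Foxp3+Gata3-, 11 in Il17a+, 20 in Ifng+ and 15 in Gzma-high cells without thinning, 12 in Ifng+ cells at 3000 UMIs, and 0 in Il17a+ cells without cells of 2 gates. With 1 library left out they ran from 8 to 14 in Foxp3+Gata3-, 3 to 7 in Il17a+, 9 to 11 in Ifng+ and 7 to 10 in Gzma-high cells. A pair above its product in every library stays so when 1 is left out. These last counts therefore could not fall below those with all libraries, and they do not check them.

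Over all genes, thinning before gating gave 1393 calls in place of 2926 in Foxp3+Gata3+, 1166 in place of 1934 in Foxp3+Gata3-, 571 in place of 2453 in Il17a+ and 926 in place of 1439 in Gzma-high over rest, 86 in place of 241 in Foxp3+Gata3+ over Foxp3+Gata3- and 802 in place of 2426 in Il17a+ over Ifng+. Thinning before gating changed depth and gate membership together. Without the block 368 in place of 961 were called in Ifng+, 875 in Gzma-high over rest and 110 in Foxp3+Gata3+ over Foxp3+Gata3-, where no filter gave 443 and leaving out library 1, 2 or 3 gave 119 to 137; without library 2, 616 were called in Ifng+ over rest. With library size alone, 48.4% of calls in Foxp3+Gata3+ over Foxp3+Gata3- were higher (63.5% with TMM), 46.7% in Il17a+ over rest (57.6%) and 43.1% in Il17a+ over Ifng+ (56.6%); with no filter, 42.7% were higher in Gzma-high over rest (53.0%). The causes of these shifts were not tested.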
